A study of Canis lupus familiaris with 6 samples.

Results

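The genes described here are 10 genes of the cellular response to oxygen: HIF1A, EGLN1, EGLN3, P4HA1, P4HA2, NDRG1, BNIP3, KDM3A, ANKRD37 and PFKFB3. They were chosen by name, with earlier results of these data known, 1 row each from the 20500 rows of a gene expression table. All 10 passed the level required for testing, as did 10874 rows in all. The samples were 6 polyA RNA libraries of HU-HSA-2, a line of canine hemangiosarcoma cells (a cancer of endothelial origin in the dog). Of these, 3 libraries came from cells given (R)-GNE-140 for 72 hours, a small molecule that inhibits lactate dehydrogenase, and 3 were control libraries, which per the labels' protocols belong to a DMSO arm of the same length. Both groups share the cell line and the medium, DMEM with serum, and both come from this 1 line. The dose of the compound and the oxygen level of the culture are not stated in the sources used here.

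Hypoxia-inducible factors, or HIFs, are transcription factors that switch on genes for life at low oxygen. When oxygen is present, the EGLN enzymes, also called prolyl hydroxylases, place a hydroxyl group on the HIF alpha subunit, and the VHL ubiquitin ligase then sends it to the proteasome. The control therefore acts mostly on the HIF alpha protein, which RNA libraries do not measure. EGLN1, EGLN3, P4HA1, P4HA2, NDRG1, BNIP3, KDM3A, ANKRD37 and PFKFB3 are known from human and mouse cells as genes that HIF switches on. The EGLN, P4HA and KDM3A enzymes also use oxygen, iron and alpha-ketoglutarate as substrates or cofactors.

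The values are TPM, a transcript abundance corrected for transcript length and scaled to the same total in each library, so the sequencing depth is unknown. Between 13379 and 13861 rows were above 0 in a library. Endothelial markers, listed to check the label, had a mean of at least 1 TPM for 11 of 12 genes, and PECAM1, a surface protein of endothelial cells, stood at 304 to 334 TPM in treated cells and 335 to 363 TPM in control cells. VWF, which marks many endothelial cells, was at most 0.13 TPM. The summed level of the endothelial list was 1341 to 1429 TPM in treated libraries and 1488 to 1714 TPM in control libraries. CLDN5, the most abundant of the list, had a mean of 625 TPM in treated and 758 TPM in control cells. Of the 11 endothelial markers tested, 0 had a limma adjusted p under 0.05. In treated libraries 4 of the 11 lay wholly lower and 1 (FLT1) wholly higher, against 11.8% and 11.2% of all genes tested. Of the 6 leukocyte markers 1 reached a mean of 1 TPM (CD14), with a summed level of 6.56 to 7.48 TPM in treated and 5.45 to 5.86 TPM in control libraries, and CD3E was at 0 in all 6. Of the 7 fibroblast and smooth muscle markers 2 reached it, with 3.66 to 5.64 TPM in treated and 3.22 to 3.46 TPM in control libraries, and COL3A1 was at 0. The 3 epithelial markers with a row summed to at most 0.26 TPM. The part of these marker differences in the results below was not tested.

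The 10 genes did not move as a block. EGLN1, the main oxygen sensor, fell after (R)-GNE-140 and was the 1 gene of the 10 that passed the test, while 0 rose and 9 did not pass (limma, Benjamini-Hochberg adjusted over all 10874 genes). Over all genes tested 3.03% passed, 1.31% higher and 1.72% lower, so 1 of 10 is a small count to set beside that share. In 5 of the 10 genes the 3 treated values lay wholly apart from the 3 control values, 4 lower (EGLN1, P4HA1, P4HA2, ANKRD37) and 1 higher (NDRG1), against 23.1% of all genes tested, 11.8% lower and 11.2% higher. In the other 5 (HIF1A, EGLN3, BNIP3, KDM3A, PFKFB3) the groups overlapped. The 10 genes were chosen with earlier results of these data known, so their counts cannot be read as those of genes picked blind. The median log2 difference of the 10 was -0.08, between -0.32 for ANKRD37 and 0.32 for NDRG1, and that of all genes tested was 0.004. Differences are treated minus control on the scale of log2(TPM + 1), on which the change of a gene at low TPM appears smaller than it is.

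**Figure D1:**
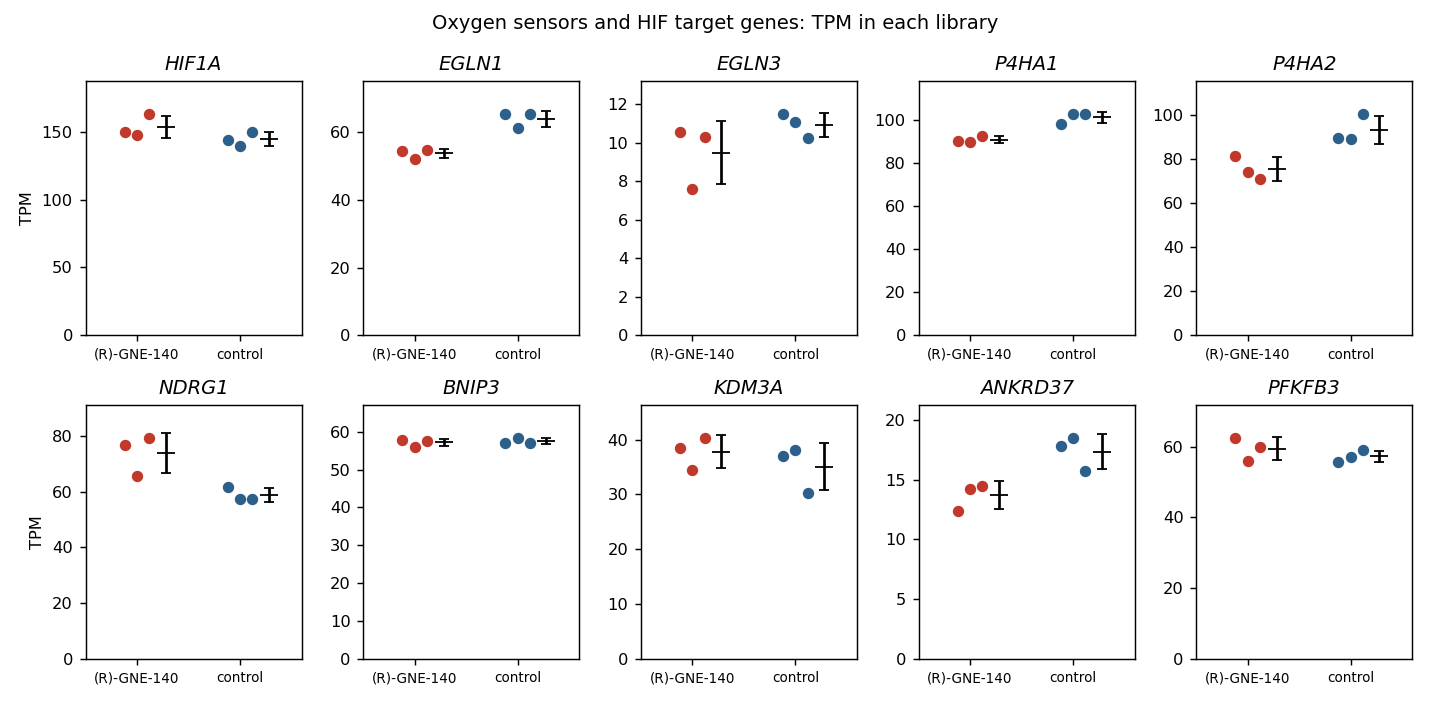
Level in TPM of each of the 10 genes in the 3 (R)-GNE-140 libraries (red, left) and the 3 control libraries (blue, right), with the mean and SD beside each group and every axis starting at 0. The treated points lie below all control points for EGLN1, P4HA1, P4HA2 and ANKRD37 and above them for NDRG1, while the other 5 genes overlap.

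All 10 genes were expressed, and their levels are given here as the mean TPM over the 6 libraries. HIF1A was the most abundant at 149 TPM, higher than 91.0% of all genes tested. P4HA1 at 95.9 TPM and P4HA2 at 84.2 TPM came next, in that order in all 6 libraries, and P4HA2 was above NDRG1 in 5 of 6. NDRG1 at 66.3, EGLN1 at 58.9, PFKFB3 at 58.3 and BNIP3 at 57.3 TPM were close, and each neighbouring pair among these 4 kept its order in only 3 of 6 libraries. KDM3A at 36.4, ANKRD37 at 15.5 and EGLN3 at 10.2 TPM followed, each below the one before in all 6 libraries.

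HIF1A (ENSCAFG00845023223), the oxygen-regulated subunit of HIF, had 150.2, 148 and 163 TPM in treated cells and 144, 139.7 and 150.3 TPM in control cells. The highest control library lay above the lower 2 treated libraries. The difference on the log2 scale was 0.09 (95% interval -0.03 to 0.21, limma adjusted p = 0.461). Of the other alpha subunits, EPAS1 was low, at 1.74 to 2.77 TPM in treated and 1.33 to 1.53 TPM in control cells, and HIF3A was listed at 0 in all 6 libraries. HIF1A therefore made up 98.6% ± 0.344 of the summed TPM of the 3 alpha subunits in treated cells and 99.0% ± 0.0873 in control cells (SD, n = 3 each). These shares did not overlap between the groups (exact 2-sided permutation p = 0.1, the smallest possible, and 0.175 adjusted over the 7 families). EPAS1 had a log2 difference of 0.40 and did not pass (limma adjusted p = 0.227).

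EGLN1 (ENSCAFG00845000514), the hydroxylase that sets HIF alpha levels in most tissues, had 54.6, 52.2 and 54.7 TPM in treated cells and 65.4, 61.3 and 65.3 TPM in control cells. Every treated library was below every control library, with a gap of 6.65 TPM between the nearest values. It fell by 16.0% in TPM, to 53.8 ± 1.42 TPM in treated cells, against 64.0 ± 2.32 TPM in control cells (SD, n = 3 each). The log2 difference was -0.25 (SE 0.05, 95% interval -0.37 to -0.13, limma adjusted p = 0.0427). No fit that omitted 1 of the 6 libraries kept this call, and in those 6 fits the log2 difference ran from -0.28 to -0.22 and the limma adjusted p from 0.0635 to 0.158. EGLN1 passed in 6 of the 9 fits that changed the pseudocount, filter, scaling, variance model or block. It missed in the other 3, with no filter on low values, with no variance trend and with the block (limma adjusted p = 0.0589, 0.0928 and 0.0570). In bulk RNA, less RNA in every cell and fewer cells that express a gene cannot be told apart.

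The other 2 hydroxylases of the family did not pass. EGLN2, which is not itself a typical HIF target, had 54.1, 48.4 and 52.9 TPM in treated cells and 50.16, 50.25 and 52.8 TPM in control cells. Its log2 difference was 0.02 (95% interval -0.12 to 0.15, limma adjusted p = 0.916), and it turned below 0 without treated replicate 1. EGLN3, a sensor that HIF induces strongly in many cells, had 10.6, 7.60 and 10.3 TPM in treated cells and 11.5, 11.1 and 10.2 TPM in control cells. Treated replicate 2 was the lowest, and the other 2 treated libraries overlapped the controls. EGLN3 differed by -0.20 on the log2 scale (95% interval -0.46 to 0.07, limma adjusted p = 0.447), and by -0.06 without treated replicate 2.

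The share of EGLN1 among the 3 hydroxylase transcripts did not overlap between the groups. EGLN1 held 45.8%, 48.2% and 46.4% of the family's summed TPM in treated cells and 51.5%, 50.01% and 50.9% in control cells. EGLN2 held 45.0% ± 0.337 in treated cells and 40.5% ± 0.912 in control cells, and EGLN3 8.22% ± 1.03 and 8.68% ± 0.604 (SD, n = 3 each). The EGLN1 share differed by -3.99 percentage points (exact 2-sided permutation p = 0.1, the smallest that 3 against 3 libraries allow, and 0.175 adjusted over the 7 families compared). The hydroxylase that acts on an asparagine of HIF alpha, HIF1AN, had 13.7 ± 1.20 TPM in treated and 13.9 ± 0.738 TPM in control cells. VHL had 22.2 ± 2.93 and 20.1 ± 0.867 TPM (SD, n = 3 each), and neither passed (limma adjusted p = 0.953 and 0.535).

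**Figure D2:**
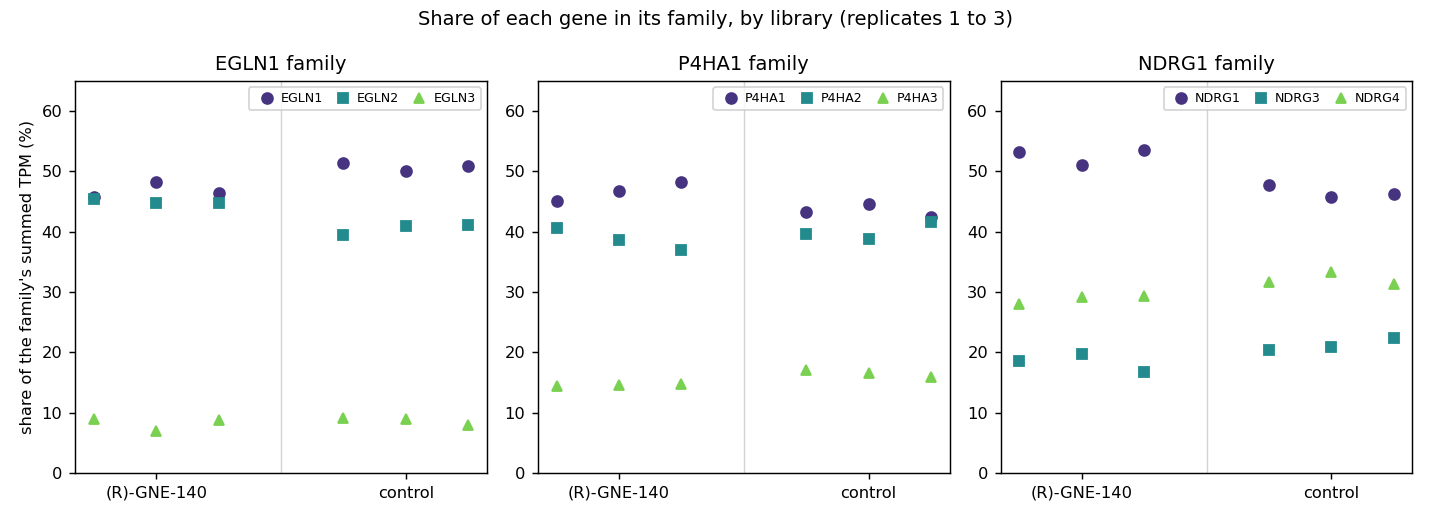
Share of each gene in the summed TPM of its family, in percent, for the EGLN, P4HA and NDRG families in each library, with treated libraries left of control libraries. EGLN1 lies lower (45.8% to 48.2% against 50.01% to 51.5%) and NDRG1 higher (51.1% to 53.6% against 45.8% to 47.7%) in treated cells. NDRG2, at under 1% of its family, is not drawn.

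P4HA1 and P4HA2 encode the catalytic alpha subunits of collagen prolyl 4-hydroxylase, the enzyme in the endoplasmic reticulum that stabilises the collagen triple helix. P4HA2 (ENSCAFG00845009961) had 81.4, 73.9 and 70.9 TPM in treated cells and 89.7, 89.1 and 100.3 TPM in control cells. All treated values were below all control values, and the log2 difference was -0.30 (SE 0.07, 95% interval -0.45 to -0.15, limma adjusted p = 0.0523), just outside the threshold. It passed in 4 of 15 alternative fits, among them the one without treated replicate 1 (limma adjusted p = 0.0476, and 0.0408 to 0.163 over all 15). P4HA1 (ENSCAFG00845006050) had 90.3, 89.6 and 92.3 TPM in treated cells and 98.1, 102.5 and 102.5 TPM in control cells. These groups did not overlap either, with a smaller log2 difference of -0.15 (SE 0.05, 95% interval -0.26 to -0.05, limma adjusted p = 0.118).

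P4HA3, the least abundant alpha subunit and not 1 of the 10 genes, fell. It had 28.8, 27.99 and 28.2 TPM in treated cells and 38.5, 37.9 and 38.6 TPM in control cells. The log2 difference was -0.42 (SE 0.05, 95% interval -0.54 to -0.30, limma adjusted p = 0.00649), and it passed in all 15 alternative fits. The 3 alpha subunits together summed to 195 ± 5.21 TPM in treated cells and 232 ± 7.93 TPM in control cells (SD, n = 3 each). Within that sum the share of P4HA1 was 46.7% ± 1.599 in treated cells and 43.5% ± 1.11 in control cells (exact 2-sided permutation p = 0.1, the smallest possible).

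**Figure D3:**
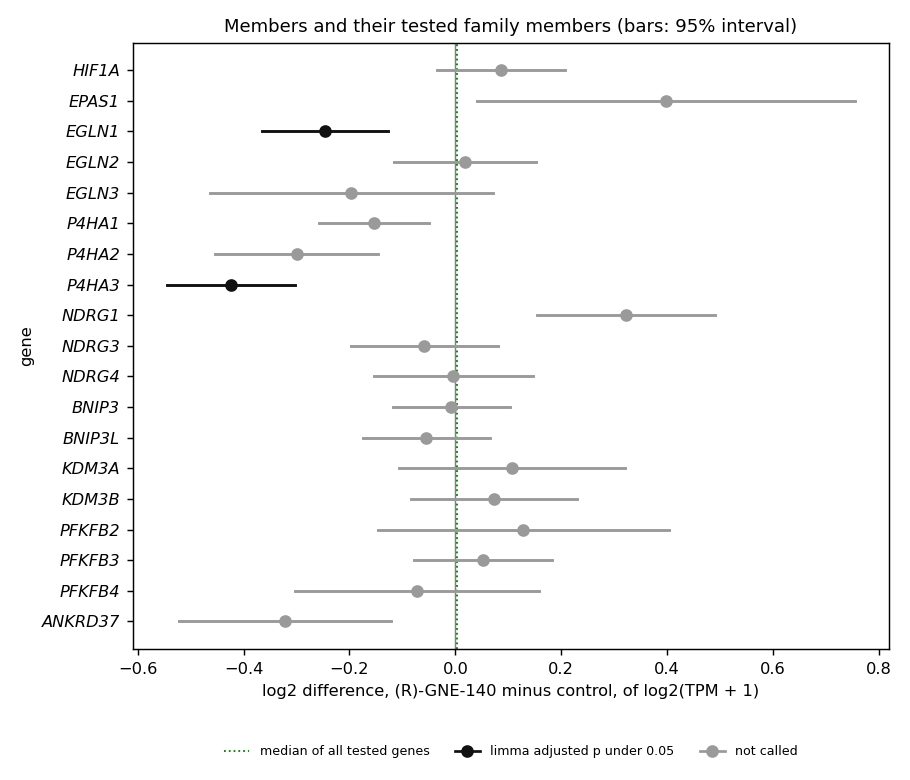
Log2 difference, (R)-GNE-140 minus control, with 95% interval for the 10 genes and the tested members of their families, on the scale of log2(TPM + 1). EGLN1 (-0.25) and P4HA3 (-0.42) are drawn in black because they passed the limma threshold, and the dotted line marks the median of all genes tested (0.004).

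The lower P4HA values stood among other genes of collagen hydroxylation and folding. In a list of 12 such genes, chosen with earlier results of these data known, 4 fell, 0 rose and 8 did not pass, against 1.72% of all genes tested that fell. In 9 of the 12 the treated values lay wholly below the control values (11.8% of all genes tested), and the list median was -0.25. P4HA1 and P4HA2 are 2 of the 12. P4HB, the beta subunit of the same enzyme and a disulfide isomerase, fell to 418 ± 17.8 TPM in treated cells, against 494 ± 25.0 TPM in control cells (log2 -0.24, limma adjusted p = 0.0425). PLOD1, a lysyl hydroxylase, fell to 199 ± 15.02 TPM in treated cells, against 248 ± 10.4 TPM in control cells (log2 -0.32, limma adjusted p = 0.0308). P3H1, a prolyl 3-hydroxylase, fell to 41.5 ± 1.89 TPM in treated cells, against 53.8 ± 2.94 TPM in control cells (log2 -0.37, limma adjusted p = 0.0185; SD, n = 3 each).

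The remaining 6 genes of that list were named after their values were seen. PLOD2, a lysyl hydroxylase that HIF is known to induce, had 11.4, 11.8 and 11.7 TPM in treated cells and 15.2, 14.6 and 13.98 TPM in control cells, apart but not called (log2 -0.30, limma adjusted p = 0.0575). CRTAP, the partner protein of P3H1, and SERPINH1, the collagen chaperone, were also apart, with log2 differences of -0.26 and -0.15 (limma adjusted p = 0.0627 and 0.0896). PLOD3 was at -0.21 with overlapping groups. The lysyl oxidases, which cross-link collagen outside the cell, were closest to 0, with LOXL2 at -0.08 and LOX at -0.003, and LOX turned above 0 when the 20 most abundant rows were removed and under quantile normalization. The count of 4 lower genes was 1 (P4HA3) without treated replicate 2 or 3, and likewise without control replicate 1 or 3. It was 7 under median-of-ratios scaling, 2 with no filter on low values and 1 with no variance trend.

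**Figure D4:**
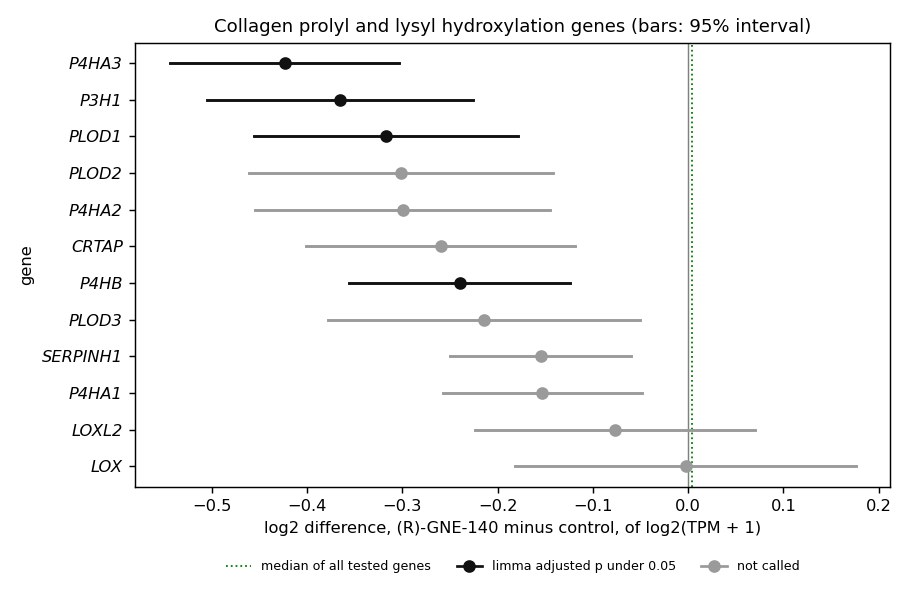
Log2 difference, (R)-GNE-140 minus control, with 95% interval for 12 collagen hydroxylation, folding and cross-linking genes, sorted from the lowest. P4HA3, P3H1, PLOD1 and P4HB, in black, passed the limma threshold, and the intervals of LOXL2 and LOX cross 0.

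NDRG1 (ENSCAFG00845009769), a cytoplasmic protein of differentiation and stress that HIF is known to induce, stood on the other side. It had 76.7, 65.7 and 79.3 TPM in treated cells and 61.6, 57.2 and 57.3 TPM in control cells. All treated values were above all control values, with a gap of 4.02 TPM. The log2 difference was 0.32 (SE 0.07, 95% interval 0.15 to 0.49) and lay just outside the threshold (limma adjusted p = 0.0541). Without treated replicate 2, the lowest of the treated libraries, the log2 difference was 0.40 and passed (limma adjusted p = 0.0279, and up to 0.167 over the 15 alternative fits). It also passed in 4 of the 9 fits that changed the scaling, filter, pseudocount, variance model or block.

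The groups overlapped for its tested relatives. NDRG3 was at 24.8 to 26.8 TPM in treated and 26.1 to 27.6 TPM in control cells, and NDRG4 at 37.4 to 43.4 and 38.9 to 41.5 TPM. Their log2 differences were -0.06 and -0.004 (limma adjusted p = 0.690 and 0.984), and the sign for NDRG4 turned when the 20 most abundant rows were removed and under quantile normalization. NDRG2 was at most 0.46 TPM. NDRG1 held 52.6% ± 1.33 of the family's summed TPM in treated cells and 46.6% ± 1.02 in control cells (SD, n = 3 each; exact 2-sided permutation p = 0.1, the smallest possible, and 0.175 adjusted over the 7 families).

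ANKRD37 (ENSCAFG00845022036), an ankyrin repeat protein used as a marker of HIF activity in human cells, had 12.3, 14.2 and 14.5 TPM in treated cells and 17.8, 18.5 and 15.7 TPM in control cells. The treated values were all lower, by a gap of 1.25 TPM. Its log2 difference was -0.32 (SE 0.09, 95% interval -0.52 to -0.12) and did not pass (limma adjusted p = 0.0934), nor did it in any of the 15 alternative fits (limma adjusted p 0.0785 to 0.243).

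BNIP3 (ENSCAFG00845028735), a mitochondrial outer membrane protein that marks mitochondria for autophagy, was the flattest of the 10. It had 57.9, 56.0 and 57.6 TPM in treated cells and 57.1, 58.4 and 56.9 TPM in control cells. The values interleaved, and they differed by -0.007 on the log2 scale (95% interval -0.12 to 0.10, limma adjusted p = 0.957). Its sign turned when the 20 most abundant rows were removed and under quantile normalization. The related mitophagy receptor BNIP3L had 41.3, 41.2 and 40.3 TPM in treated cells and 41.6, 44.1 and 41.9 TPM in control cells, a log2 difference of -0.05 (limma adjusted p = 0.664). BNIP3 held 58.3% ± 0.616 of the summed TPM of the 2 genes in treated cells and 57.5% ± 0.455 in control cells (SD, n = 3 each). These shares overlapped between the groups (exact 2-sided permutation p = 0.2).

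KDM3A (ENSCAFG00845013222), a histone H3 lysine demethylase, had 38.6, 34.4 and 40.3 TPM in treated cells and 36.9, 38.1 and 30.2 TPM in control cells. The groups overlapped, and control replicate 3 was the lowest of the 6. On the log2 scale they differed by 0.11 (95% interval -0.11 to 0.32, limma adjusted p = 0.619), and by 0.006 without control replicate 3. Its relative KDM3B, at 16.3 to 17.9 TPM in treated and 15.6 to 16.6 TPM in control cells, had a log2 difference of 0.07 (limma adjusted p = 0.645). KDM3A held 69.0% ± 1.56 of the summed TPM of the 2 genes in treated cells and 68.5% ± 2.72 in control cells (SD, n = 3 each). These shares overlapped between the groups.

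PFKFB3 (ENSCAFG00845001712), which makes the sugar phosphate that activates phosphofructokinase and so speeds glycolysis, had 62.5, 55.9 and 59.9 TPM in treated cells and 55.8, 57.0 and 58.9 TPM in control cells. The lowest treated value was close to the lowest control value. A log2 difference of 0.05 was found (95% interval -0.08 to 0.18, limma adjusted p = 0.705). PFKFB3 was the main form in this line, with 85.7% ± 0.2998 of the family's summed TPM in treated cells and 85.4% ± 1.03 in control cells (SD, n = 3 each; exact 2-sided permutation p = 0.9). PFKFB2 and PFKFB4 were at 3.72 to 5.59 TPM over the 6 libraries and neither passed, and PFKFB1 was listed at 0 in all 6.

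**Figure D5:**
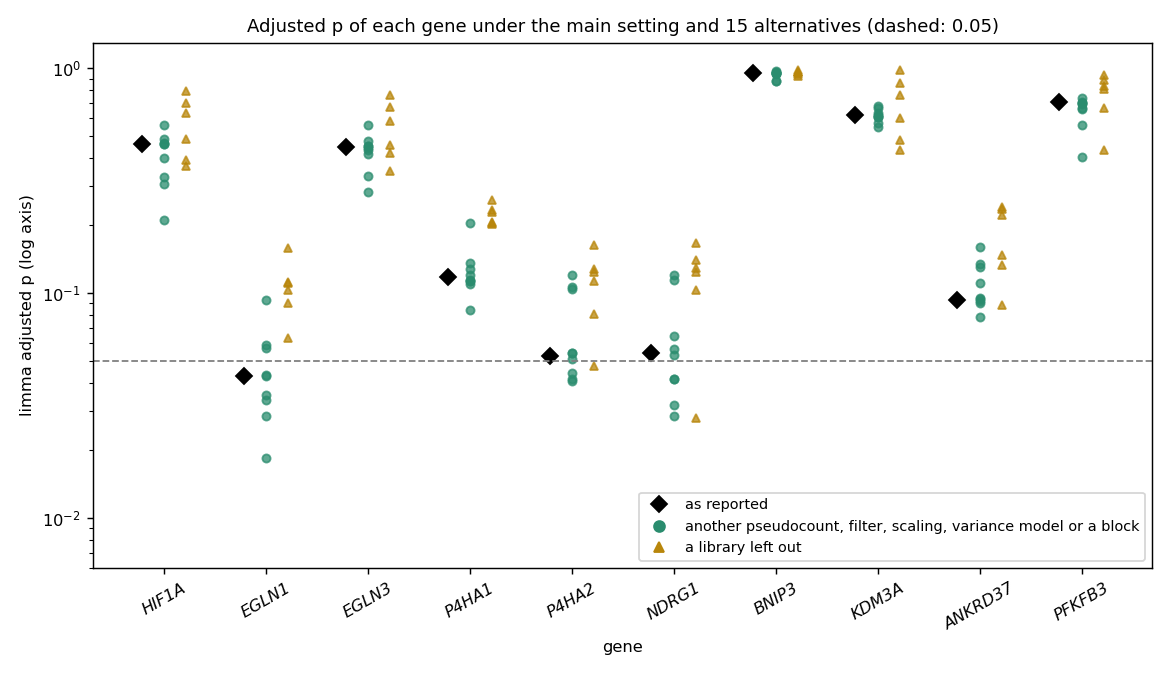
Limma adjusted p of each of the 10 genes on a log axis, as reported (diamonds), under 9 other settings (circles) and with each of the 6 libraries left out (triangles). Only EGLN1, P4HA2 and NDRG1 have points below the dashed line at 0.05, and all 6 triangles of EGLN1 lie above it.

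Other genes of the pathway were read from lists chosen with earlier results of these data known, 100 genes in all, of which 98 had a row and 88 were tested. Without the 10 genes described above, 78 were tested, of which 3 rose, 5 fell and 70 did not pass, beside 1.31% higher and 1.72% lower of all genes tested. Of the 5 that fell, 4 are in the collagen list above. The median log2 difference of the 78 was -0.004, beside 0.004 for all genes tested. Among 19 tested genes of HIF subunits, oxygen sensing and HIF degradation, EGLN1 fell and 18 did not pass. ARNT, the constant partner of HIF alpha, had 21.4 ± 1.53 TPM in treated and 22.9 ± 2.18 TPM in control cells (log2 -0.09, limma adjusted p = 0.634). Its relative ARNT2, named after its values were seen, had 13.8, 14.6 and 15.9 TPM in treated cells and 21.8, 18.9 and 17.7 TPM in control cells, apart but not called (log2 -0.37, limma adjusted p = 0.0627).

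Of 11 tested secreted and membrane HIF targets, 2 rose, 1 fell and 8 did not pass, beside 1.31% higher and 1.72% lower of all genes tested. At an unadjusted limma p under 0.05, 4 had a higher and 1 a lower value, beside 8.75% and 9.16% of all genes tested. Treated values lay wholly higher in 4 and wholly lower in 1, beside 11.2% and 11.8%. The log2 difference was above 0 in 9 and below 0 in 2, beside 5556 and 5318 of all genes tested. VEGFA, which drives vessel growth, rose (log2 0.38, limma adjusted p = 0.0173), and ADM, a vasodilator peptide, fell (log2 -0.49, limma adjusted p = 0.00223). With 1 library omitted, VEGFA passed in 2 of 6 fits (limma adjusted p up to 0.0748) and ADM in all 6.

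The other lists of HIF targets held 1 call, beside 1.31% higher and 1.72% lower of all genes tested. Among 17 tested glycolytic targets ENO2, an enolase, rose to 2.57 ± 0.474 TPM in treated cells, against 1.12 ± 0.208 TPM in control cells (SD, n = 3 each; limma adjusted p = 0.0404), and 16 did not pass. The ENO2 call did not hold in any of the 6 fits that omitted a library, where the limma adjusted p ran from 0.0760 to 0.126. Among 6 tested mitophagy and survival targets 0 were called and 0 had an unadjusted limma p under 0.05. The smallest p in that list belonged to FAM162A (log2 0.08) and MXI1 (log2 0.15). Among 6 tested chromatin targets 0 were called and 0 had an unadjusted limma p under 0.05, and KDM5B (log2 0.11) and JMJD6 (log2 0.10) had the smallest p. Among 18 other tested hypoxia-responsive genes 0 were called by limma, while 1 had a higher and 4 a lower value at an unadjusted p under 0.05, and NDRG1 and ANKRD37 had the smallest p. Of all genes tested 17.9% had such an unadjusted p, 8.75% with a higher and 9.16% with a lower value. ERO1A, which oxidises disulfide isomerases in the endoplasmic reticulum and was named after its values were seen, had 47.9, 53.2 and 52.8 TPM in treated cells and 62.0, 55.8 and 66.1 TPM in control cells (log2 -0.25, limma adjusted p = 0.106).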

How the data were processed

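Gene expression was measured by polyA RNA-seq in 6 libraries of 1 cell line, grouped by their titles into 3 (R)-GNE-140 and 3 control libraries. The deposited values are TPM, scaled by the authors to the same total per library and rounded to 2 decimals. STAR, RSEM and edgeR 3.42.0 are named in the submitters' processing notes, and their settings and the genome build are not stated in the sources used here. TPM keeps no depth, so the depth per library is unknown and no count test or counting interval is given. Precision is judged from the spread between libraries, and the labels do not say that these came from separate cultures, so p-values measure only that spread, which may be technical.

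Rows with a mean TPM of at least 1 entered a linear model of log2(TPM + 1) on group alone, fitted with limma (version 3.58.1, under R 4.3.3), with a mean trend in the variance, 2-sided tests and Benjamini-Hochberg adjustment at 0.05. The steps were tested on simulated data with independent noise in each library. Recovery was required there only for log2 changes larger than any of the 10 genes showed. It therefore does not show how often differences of their size are found. A family share is a gene's percent of its family's summed TPM per library, tested by exact permutation over libraries. The 233 rows that share a symbol with another row were left out of the lists. Identifiers come from the table's own list of identifiers and symbols, and all 10 genes matched the RefSeq gene table by symbol. Named genes were the 10 genes, their families, and from each list the called genes or else the 2 with the smallest p. Genes outside this rule are marked, except ARNT, VHL, HIF1AN and the cell type markers, which are also outside it. A gene picked by the rule is not reported here. The genes and lists were chosen with earlier results of these data known. Alternatives changed the pseudocount (0.1, 5), the filter, the scaling, the variance trend, added a replicate block, or left out a library. Figures were drawn with matplotlib 3.10.9.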

Additional observations from a re-analysis of the deposited data

How the results depend on the processing

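TPM gives no depth, so low genes such as EPAS1, ENO2 and EGLN3 can be judged only by their spread over 3 libraries. Over all genes, 142 higher and 187 lower calls became 80 and 88 with no filter on low values and 92 and 67 with no variance trend, and lower calls became 284 under median-of-ratios scaling. With 1 library left out they ran from 32 to 84 higher and from 41 to 124 lower. Among the 10 genes, 0 higher and 1 lower became 1 and 2 when the filter was raised to a mean of 5 TPM, 1 and 2 under median-of-ratios scaling, and 1 and 2 with the 20 most abundant rows removed. Quantile normalization gave 1 higher. Lower calls were 0 with no filter and 0 with no variance trend, and with 1 library left out there were 0 to 1 higher and 0 to 1 lower. The cause of these shifts was not tested.

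Signs turned where the difference was near 0. After quantile normalization, and after removal of the 20 most abundant rows, the log2 differences were 0.016 and 0.0041 for BNIP3, 0.011 and 0.0079 for NDRG4, and 0.015 and 0.0088 for LOX. With 1 library left out they ran from -0.017 to 0.0070 for BNIP3, -0.055 to 0.049 for NDRG4, -0.062 to 0.090 for LOX, -0.014 to 0.065 for EGLN2 and -0.056 to 0.055 for HIF1AN. The difference in family share ran from -0.954 to 1.74 percentage points for KDM3A and from -0.313 to 0.707 for PFKFB3.

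The replicate numbers are not shown to pair the libraries. Same-numbered libraries correlated at 0.036, 0.0093 and -0.098 in their deviations from the group means, and 1 of 6 libraries correlated best with its own number. With the replicate block the counts were 67 higher and 96 lower over all genes and 0 lower among the 10 (EGLN1 limma adjusted p = 0.0570).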

Other observations

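HILPDA, a lipid droplet protein and HIF target that was singled out after its values were seen, was listed at 0, 0 and 36.6 TPM in treated libraries and at 56.6, 56.2 and 0 TPM in control libraries. Of 7985 rows with a library at 10 TPM or more, 26 also had a library at 0, and HILPDA was the 1 list gene among them. An exact 0 in such a table can be a failed estimate, so no fold change is given for HILPDA. Its row was nonetheless tested and did not pass (limma adjusted p = 0.577). It is counted among the 18 other hypoxia-responsive genes and among the 78 pathway genes above, and enters the median of the 78.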
